A study of Mus musculus with 23 samples.

Results

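The genes described here encode the receptor MERTK and the proteins that work beside it when one cell engulfs another cell's debris. They are 8 of the 52143 genes in the deposited count table: the receptor genes Mertk, Axl and Tyro3, the ligand genes Gas6 and Pros1, the integrin ligand gene Mfge8, and the integrin subunit genes Itgav and Itgb5. They were taken by symbol, and the group was selected on the measured Mertk level, which was low in docosahexaenoic acid (DHA) against linoleic acid (LA) at day 32 without FGF1, so that contrast is given as a description with no test. All 8 passed the filter on low counts.

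The samples were retinal organoids, tissue grown in culture from induced pluripotent stem cells of the mouse Nrl-GFP line, in which a green fluorescent protein marks rods. The stem cells were 1 clone reprogrammed from fibroblasts, the neural retina was dissected from several organoids pooled per sample before RNA extraction, and poly(A) RNA was sequenced in 23 libraries of 9 groups. At day 32 with FGF1 there were 2 libraries in DHA, 3 in LA and 3 in BSA. Without FGF1, day 32 had 3 libraries in each of DHA, LA and BSA, and day 26 had 2 in each. DHA or LA, bound to bovine serum albumin (BSA), was supplied from day 10 at 26 µM (the labels print the unit with its prefix lost), and BSA alone served as control. All groups also had taurine, 9-cis retinal and insulin-like growth factor 1 in the medium up to day 26. FGF1, a growth factor, was supplied at 200 ng/ml from day 26. All organoids were also given non-essential amino acids, B27 and 2% serum from day 26 on. The contrast of day 32 with FGF1 against day 26 therefore holds age, FGF1 and all these changes of medium together, and they cannot be told apart. The changes of medium include the end of the supplements given up to day 26. The libraries are labelled as biological replicates, and no label says that they came from separate rounds of differentiation, so p-values measure the spread between these samples.

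MERTK, AXL and TYRO3 form the TAM family of receptor tyrosine kinases. Their ligands GAS6 and protein S (Pros1) hold the receptor at one end and phosphatidylserine, a lipid exposed on dying cells and on the tips of photoreceptor outer segments, at the other. MFGE8 bridges the same lipid to the integrin made of the ITGAV and ITGB5 subunits. In the eye the pigment epithelium binds shed outer segment tips through this integrin and takes them up through MERTK, and loss of Mertk in the rat leads to photoreceptor loss.

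The libraries differed in more than their groups. The 12 deeper libraries (every day 26 library, and with FGF1 replicates 1 and 2 in each medium) held 16029580 to 20510550 counts, and the other 11 held 10405663 to 11888224. The authors left 5 of the 11 shallower libraries out of their normalized table: replicate 1 of each day 32 group without FGF1, and replicate 3 of LA and of BSA with FGF1. Those 5 libraries carried transcripts that the other 18 nearly lacked, though all are labelled as 1 clone: the Y-linked gene Eif2s3y stood at 29.9 to 69.8 CPM (counts relative to the library's total) in them and at 0.0496 to 0.787 CPM in the 18, and the imprinted RNA gene Meg3 at 139 to 428 CPM and at 0.329 to 7.53 CPM. Across genes, log2 CPM changed with each 10 points of transcript GC by 0.239 to 0.504 (the GC slope) in the deeper libraries and −1.73 to −0.569 in the shallower ones. All day 32 libraries without FGF1 were shallower, so no level is compared between them and day 26, and the fit had a term for the left-out libraries within each day 32 state.

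The promoters of the 4 genes that were higher at day 32 with FGF1 than at day 26 are shown first, since these genes passed the threshold in that comparison. Each is 300 bases of RefSeq sequence on GRCm38.p6, read 5′ to 3′ on the gene's own strand, from 250 bases before the annotated start to 50 after it. Capitals mark GGGCGG on either strand, the core of a GC box. The windows are chr2:128698665-128698964 on the plus strand for Mertk, chr16:62854057-62854356 on the plus strand for Pros1, chr7:79149011-79149310 on the minus strand for Mfge8 and chr2:83724147-83724446 on the plus strand for Itgav.
Mertk: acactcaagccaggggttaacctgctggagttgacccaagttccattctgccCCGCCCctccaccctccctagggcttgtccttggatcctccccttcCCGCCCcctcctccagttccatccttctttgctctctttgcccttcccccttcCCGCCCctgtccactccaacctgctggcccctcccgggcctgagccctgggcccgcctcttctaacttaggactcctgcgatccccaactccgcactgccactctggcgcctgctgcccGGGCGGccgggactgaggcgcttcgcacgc
Pros1: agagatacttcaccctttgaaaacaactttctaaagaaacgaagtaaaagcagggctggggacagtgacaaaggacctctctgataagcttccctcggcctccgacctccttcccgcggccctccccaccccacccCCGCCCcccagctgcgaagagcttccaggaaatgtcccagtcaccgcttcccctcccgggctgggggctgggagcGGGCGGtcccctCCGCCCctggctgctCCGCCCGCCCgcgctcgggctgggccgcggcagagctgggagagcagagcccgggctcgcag
Mfge8: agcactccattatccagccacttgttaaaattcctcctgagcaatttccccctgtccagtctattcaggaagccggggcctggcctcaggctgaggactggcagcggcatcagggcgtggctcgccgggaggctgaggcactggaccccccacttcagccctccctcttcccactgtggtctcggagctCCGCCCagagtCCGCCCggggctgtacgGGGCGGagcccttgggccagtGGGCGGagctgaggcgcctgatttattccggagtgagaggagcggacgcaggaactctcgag
Itgav: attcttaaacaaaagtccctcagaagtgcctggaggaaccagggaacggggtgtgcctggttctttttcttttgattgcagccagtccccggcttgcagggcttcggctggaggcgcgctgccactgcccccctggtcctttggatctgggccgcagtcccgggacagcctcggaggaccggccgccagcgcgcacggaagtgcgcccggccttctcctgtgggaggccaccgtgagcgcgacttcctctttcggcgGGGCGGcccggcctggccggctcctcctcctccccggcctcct

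GGGCGG stood in the windows of all 8 genes, 4 times in Mertk, 5 in Pros1, 4 in Mfge8 and 1 in Itgav, with overlapping copies counted. Of 32851 mouse promoters of this length, 35.7% held it. The GC content of the 8 windows was 58.3% to 73.3%, against a median of 52.7% over all promoters. The E-box CACGTG, the TATA sequence TATAAA and the nuclear receptor sequence TGACCT, each searched on both strands, matched none of the 8 windows, and 7.15%, 13.6% and 16.3% of all promoters held them. A match describes these letters only.

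Among the media at day 32 without FGF1, Mertk was lowest in the DHA libraries. It overlapped between DHA and the other media at day 26 and at day 32 with FGF1. Without FGF1 at day 32, Mertk stood at 2.06, 1.88 and 2.60 CPM in DHA, at 5.85, 6.48 and 4.82 CPM in LA and at 4.19, 3.86 and 2.65 CPM in BSA. The DHA libraries lay below every LA and every BSA library, and the LA libraries lay above every BSA library. The nearest DHA and BSA libraries, at 2.60 and 2.65 CPM, were almost level, and after adjustment for GC content their order turned, at 1.24 in DHA and 1.23 in BSA (log2 CPM). These CPM values were scaled by TMM, a method that evens out library composition, and in bulk tissue fewer cells of a type and less RNA per cell cannot be told apart.

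**Figure D1:**
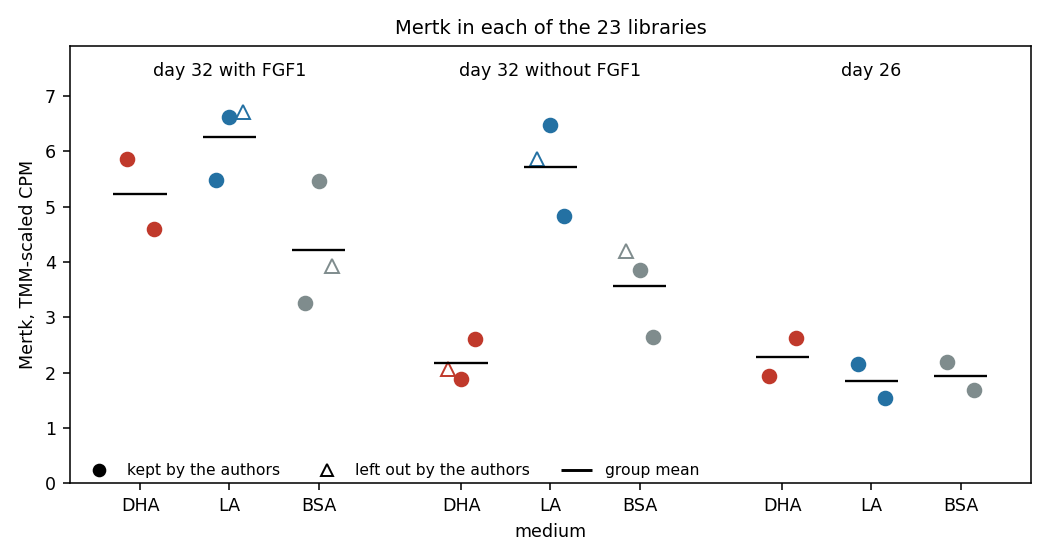
Mertk level in each library (vertical axis, TMM-scaled CPM) by medium within each day and FGF1 state, with filled circles for libraries kept by the authors, open triangles for those they left out and lines for group means. At day 32 without FGF1 the DHA libraries sit at 1.88 to 2.60 CPM and the LA libraries at 4.82 to 6.48 CPM, and at day 26 all 6 libraries sit at 1.55 to 2.63 CPM.

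As a description of the contrast that picked the gene, the log2 difference in Mertk between DHA and LA at day 32 without FGF1 was −1.39, and −1.34 in the kept libraries. From the same libraries, DHA minus BSA was −0.70 and LA minus BSA was 0.68. In that contrast edgeR called 0 of 21124 genes at an adjusted p under 0.05 (0%), with 1173 (5.55%) at an unadjusted p under 0.05, DESeq2 called 29, and edgeR with a replicate block called 2. Groups without overlap were found for 2.57% of genes tested for lower DHA against LA, 3.21% for lower DHA against BSA and 3.47% for higher LA against BSA.

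With FGF1 the order was less plain. At day 32 with FGF1, Mertk stood at 5.85 and 4.59 CPM in DHA, at 5.47, 6.61 and 6.71 CPM in LA, and at 3.25, 5.46 and 3.92 CPM in BSA. The DHA libraries overlapped both other groups, while all 3 LA libraries were above all 3 BSA libraries, though the nearest pair, 5.47 and 5.46 CPM, was almost level. Such an order, higher in LA, was found for 1.79% of genes tested. On the log2 scale DHA minus LA was −0.26 (−0.98 to 0.46), DHA minus BSA 0.31 (−0.40 to 1.02) and LA minus BSA 0.57 (−0.05 to 1.18), each with an edgeR adjusted p of 1. Same-numbered LA and BSA libraries with FGF1 deviated together. Within all 3 such pairs LA was above BSA for 4 of the 8 genes (Mertk, Axl, Tyro3 and Pros1), as for 11.1% of genes tested, and below BSA for 2 (Gas6 and Mfge8), as for 14.3%. With a replicate block LA minus BSA was 0.58 for Mertk, 0.39 for Axl, 0.30 for Tyro3, 0.31 for Pros1, −0.33 for Gas6 and −0.44 for Mfge8, each with an adjusted p of 1.

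At day 26 the media overlapped. Mertk stood at 1.93 and 2.63 CPM in DHA, at 2.16 and 1.55 CPM in LA and at 2.19 and 1.68 CPM in BSA. DHA minus LA was 0.30 (−0.48 to 1.08), DHA minus BSA 0.24 (−0.54 to 1.02) and LA minus BSA −0.06 (−0.84 to 0.72) in log2, each with an adjusted p of 1. Averaged over day 26 and day 32 with FGF1, the states that the choice of Mertk did not use, DHA minus LA was 0.02 (−0.50 to 0.54, adjusted p = 1). Whether this differs from the value at day 32 without FGF1 was not tested, since that contrast picked the gene. The difference in DHA minus LA between day 32 with FGF1 and day 26 was −0.56 (−1.62 to 0.51, adjusted p = 1).

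The Mertk count came from 2 transcripts, whose levels differed in how they lay by medium. The coding transcript ENSMUST00000014505 held 79.7% of the Mertk counts summed over the 23 libraries, and ENSMUST00000140221, annotated as a processed transcript without a coding frame, held 20.3%. Without FGF1 at day 32 the coding transcript had 7.97, 24.0 and 28.0 estimated counts in DHA, 21.2, 31.8 and 23.9 in LA and 34.6, 42.5 and 18.6 in BSA. These overlapped in all 3 media. The processed transcript had 9.03, 0 and 0 counts in DHA, 25.8, 29.2 and 16.1 in LA and 12.4, 1.50 and 6.40 in BSA. Here the LA libraries lay above all DHA and BSA libraries. With FGF1 the processed transcript had 30.6 and 0 counts in DHA, 20.9, 0 and 32.4 in LA and 0, 30.4 and 15.4 in BSA, and it was at 0 in 1 library of each medium. The deposited counts split reads between these 2 transcripts by estimation. The deposited gene count of Mertk was not the sum of the 2, but 0.875 to 1.2 times that sum. At day 32 without FGF1 the sums were 17.0, 24.0 and 28.0 counts in DHA, 47.0, 61.0 and 40.0 in LA and 47.0, 44.0 and 25.0 in BSA. Relative to each library's total they were 1.63, 2.15 and 2.36 CPM in DHA, 4.11, 5.64 and 3.64 CPM in LA and 3.95, 4.11 and 2.4 CPM in BSA. By the sums DHA was below all LA libraries, DHA and BSA overlapped in counts (28.0 and 25.0 in replicate 3) and were nearly level there relative to the totals, and LA and BSA overlapped.

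Axl, which binds GAS6 and acts mainly where tissue is inflamed, and Tyro3, the family member best known from the nervous system, overlapped between media at day 32 without FGF1. At day 32 without FGF1, Axl stood at 3.47, 18.0 and 6.24 CPM in DHA, at 10.3, 16.0 and 5.48 CPM in LA and at 17.8, 7.23 and 7.64 CPM in BSA. Tyro3 stood at 3.14, 14.8 and 2.70 CPM in DHA, at 5.43, 8.05 and 5.04 CPM in LA and at 4.19, 5.25 and 7.74 CPM in BSA. For both genes 1 DHA library, replicate 2, was far above the other DHA libraries, and the media overlapped. DHA minus LA was −0.19 for Axl, which turned to 0.17 in the kept libraries, and 0.07 for Tyro3, which turned to −0.33 with GC offsets.

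With FGF1, Axl stood at 19.5 and 23.3 CPM in DHA, at 19.3, 37.7 and 10.1 CPM in LA and at 14.6, 27.5 and 8.13 CPM in BSA. Tyro3 stood at 23.2 and 20.8 CPM in DHA, at 27.4, 33.9 and 3.08 CPM in LA and at 20.8, 27.2 and 2.81 CPM in BSA. The lowest value in LA and in BSA was the shallower replicate 3 each time. At day 26, Axl stood at 9.19 and 8.79 CPM in DHA, below the 13.5 and 11 CPM of LA, with 16.9 and 9.18 CPM in BSA. This was the 1 member of 8 with no overlap in the lower direction between DHA and LA at day 26, as were 13.6% of genes tested. Averaged over day 26 and day 32 with FGF1, DHA minus LA was −0.42 (−1.35 to 0.52) for Axl and −0.37 (−1.10 to 0.36) for Tyro3, both with an adjusted p of 1.

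Gas6, whose product binds all 3 receptors, spanned a wide range. Gas6 at day 32 without FGF1 stood at 24.2, 93.0 and 19.9 CPM in DHA, at 16.7, 51.7 and 17.2 CPM in LA and at 53.5, 27.8 and 32.2 CPM in BSA, with overlap between all media. With FGF1 it stood at 199 and 195 CPM in DHA, at 143, 139 and 15.8 CPM in LA and at 161, 170 and 23.4 CPM in BSA. Both DHA libraries were above every LA and BSA library. At day 26 Gas6 stood at 79.8 and 93.9 CPM in DHA, at 84.8 and 93.8 CPM in LA and at 84.2 and 82.3 CPM in BSA, a narrow band, in which both LA libraries were above both BSA libraries, as for 12.4% of genes tested.

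DHA minus LA in Gas6 with FGF1 was 0.54 (−0.60 to 1.67, adjusted p = 1) in the fit of all libraries. Gas6 and Mfge8 were the 2 members of 8 with no overlap in the higher direction between DHA and LA with FGF1, as were 10.0% of genes tested. Gas6 was the 1 member so placed between DHA and BSA with FGF1, as were 7.08% of genes.

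Pros1 encodes protein S, a plasma anticoagulant that MERTK and TYRO3 bind. Pros1 at day 32 without FGF1 stood at 17.1, 27.9 and 43.4 CPM in DHA, at 49.9, 41.6 and 35.2 CPM in LA and at 29.9, 41.0 and 40.8 CPM in BSA. Of the DHA libraries 2 were below all LA libraries, and DHA minus LA was −0.59. With FGF1, Pros1 stood at 15.4 and 23.3 CPM in DHA, at 21.1, 22.4 and 55.7 CPM in LA and at 11.9, 21.2 and 54.1 CPM in BSA, where the 2 highest values were the shallower libraries. At day 26 it stood at 13.0 and 9.38 CPM in DHA, at 11.8 and 7.37 CPM in LA and at 10.4 and 8.92 CPM in BSA. DHA minus LA over those other 2 states was 0.06 (−0.49 to 0.60, adjusted p = 1).

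Mfge8 varied most among the 8 genes within a state, with a root mean square of 0.712 log2 units around the mean of each day, FGF1 state and library set, against 0.433 for Mertk and 0.178 for Itgb5. Mfge8 at day 32 without FGF1 stood at 35.3, 219 and 25.8 CPM in DHA, at 44.0, 108 and 23.3 CPM in LA and at 149, 43.8 and 70.0 CPM in BSA. The high values were 1 library of each medium. With FGF1 it stood at 577 and 457 CPM in DHA, at 350, 362 and 38.0 CPM in LA and at 420, 458 and 62.7 CPM in BSA. At day 26 it stood at 119 and 114 CPM in DHA, at 168 and 95.2 CPM in LA and at 142 and 76.3 CPM in BSA. DHA minus LA over day 26 and day 32 with FGF1 was 0.21 (−0.95 to 1.38, adjusted p = 1), an interval that leaves room for a 2-fold difference.

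The integrin subunit genes were the steadiest members across media. Itgav encodes the alpha subunit, which several beta subunits share. Its level at day 32 without FGF1 was 84.4, 80.2 and 110 CPM in DHA, at 109, 84.8 and 94.6 CPM in LA and at 78.8, 77.0 and 87.2 CPM in BSA. Itgb5, the beta subunit of the integrin that binds outer segment tips, stood at 32.3, 39.5 and 34.1 CPM in DHA, at 30.9, 38.3 and 33.8 CPM in LA and at 39.8, 39.6 and 27.4 CPM in BSA. DHA minus LA was −0.07 for Itgav, which turned to 0.08 in the kept libraries, and 0.04 for Itgb5 at day 32 without FGF1. Over the other 2 states it was 0.10 (−0.23 to 0.43) for Itgav and 0.03 (−0.34 to 0.39) for Itgb5, both with an adjusted p of 1. Of the 8 genes these 2 had the narrowest intervals.

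**Figure D2:**
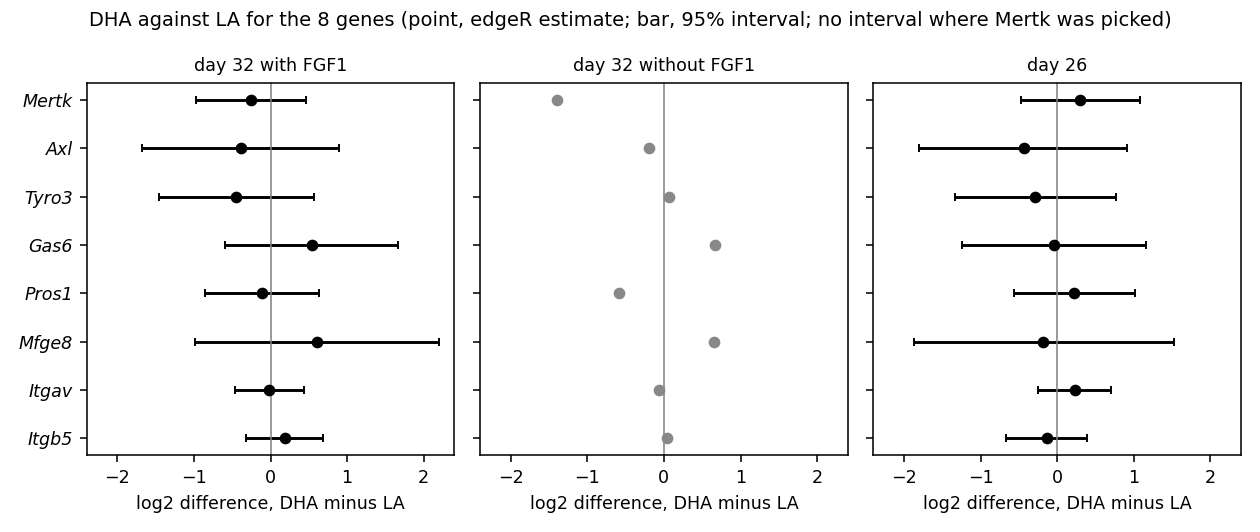
Log2 difference between DHA and LA (horizontal axis, DHA minus LA) for the 8 genes in each state, with points for edgeR estimates and bars for 95% intervals; the panel with grey points and no intervals is the state in which Mertk was picked. Mertk lies at −1.39 there, and at −0.26 with FGF1 and 0.30 at day 26, where the intervals of all 8 genes cross 0.

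With edgeR's fit of all 23 libraries, 0 of 21124 genes (0%) passed in any pair of media in the 3 states. The same held for DHA minus LA averaged over day 26 and day 32 with FGF1, and for its difference between those states. At day 26, at day 32 with FGF1 and in these contrasts of the averaged states, 0 of 8 members passed. No test is given for Mertk at day 32 without FGF1, where it was picked. At an unadjusted p under 0.05 there were, with FGF1, 755 genes (3.57%) for DHA and LA, 277 (1.31%) for DHA and BSA and 360 (1.70%) for LA and BSA. Day 32 without FGF1 had 964 (4.56%) for DHA and BSA and 1019 (4.82%) for LA and BSA. Day 26 had 255 (1.21%) for DHA and LA, 111 (0.525%) for DHA and BSA and 157 (0.743%) for LA and BSA. The averaged contrast had 430 (2.04%) and the difference between states 584 (2.76%). DESeq2 called 40, 0 and 1 genes with FGF1, 10 and 11 for DHA and for LA against BSA at day 32 without FGF1, 0 in each comparison at day 26, 5 in the averaged contrast and 28 in the difference. None of the 7 members other than Mertk passed against BSA at day 32 without FGF1, with adjusted p-values of 0.980 to 1 for DHA and 0.905 to 0.998 for LA. In simulated data for the averaged contrast, 40 of 100 genes with a 2-fold change and 89 of 100 with a 4-fold change were found among 20801 genes. The changed genes were drawn only from those above a floor on the mean count, so these shares do not cover genes of low count.

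Between day 32 with FGF1 and day 26, compared through the deeper libraries, 4 of the 8 genes rose and none fell. Of 21124 genes, 15.0% passed in this comparison, 8.01% higher and 7.02% lower, and 26.6% had an unadjusted p under 0.05. The median log2 difference of the 8 genes was 1.00, against −0.01 over all genes tested. Mertk was 2.56-fold higher, with 3.25 to 6.61 CPM at day 32 with FGF1 and 1.55 to 2.63 CPM at day 26 (6 libraries each), a log2 difference of 1.35 (SE 0.211, adjusted p = 0.000269). Itgav had 62.9 to 89.7 CPM at day 32 with FGF1 and 28.4 to 44.3 CPM at day 26, a log2 difference of 1.07 (SE 0.132, adjusted p = 2.98e-05). Mfge8 had 350 to 577 CPM at day 32 with FGF1 and 76.3 to 168 CPM at day 26, a log2 difference of 1.87 (SE 0.477, adjusted p = 0.0129). Pros1 had 11.9 to 23.3 CPM at day 32 with FGF1 and 7.37 to 13.0 CPM at day 26, a log2 difference of 0.92 (SE 0.217, adjusted p = 0.00762). For Mertk, Itgav and Mfge8 every library of day 32 with FGF1 was above every library of day 26, while Pros1 overlapped.

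The other 4 genes did not pass. The log2 difference was 1.06 for Axl (0.27 to 1.84, adjusted p = 0.0666), 0.94 for Gas6 (0.25 to 1.64, adjusted p = 0.0663), 0.73 for Tyro3 (0.12 to 1.34, adjusted p = 0.106) and 0.17 for Itgb5 (−0.14 to 0.47, adjusted p = 0.541). Gas6 had 139 to 199 CPM at day 32 with FGF1 and 79.8 to 93.9 CPM at day 26, and Tyro3 had 20.8 to 33.9 CPM and 11.7 to 19.3 CPM, neither with overlap. In all, 5 of 8 genes had no overlap in the higher direction, as did 7.56% of genes tested. With a replicate block 6 of the 8 passed, adding Axl (1.03, adjusted p = 0.0324) and Gas6 (0.95, adjusted p = 0.0214). With GC offsets, and in a fit of the deeper libraries alone, which called 5773 genes, 7 passed, all but Itgb5. Mfge8 no longer passed without replicate 2 of BSA at day 26 (1.74, adjusted p = 0.0539) or without the term for the left-out libraries (1.53, adjusted p = 0.131).

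**Figure D3:**
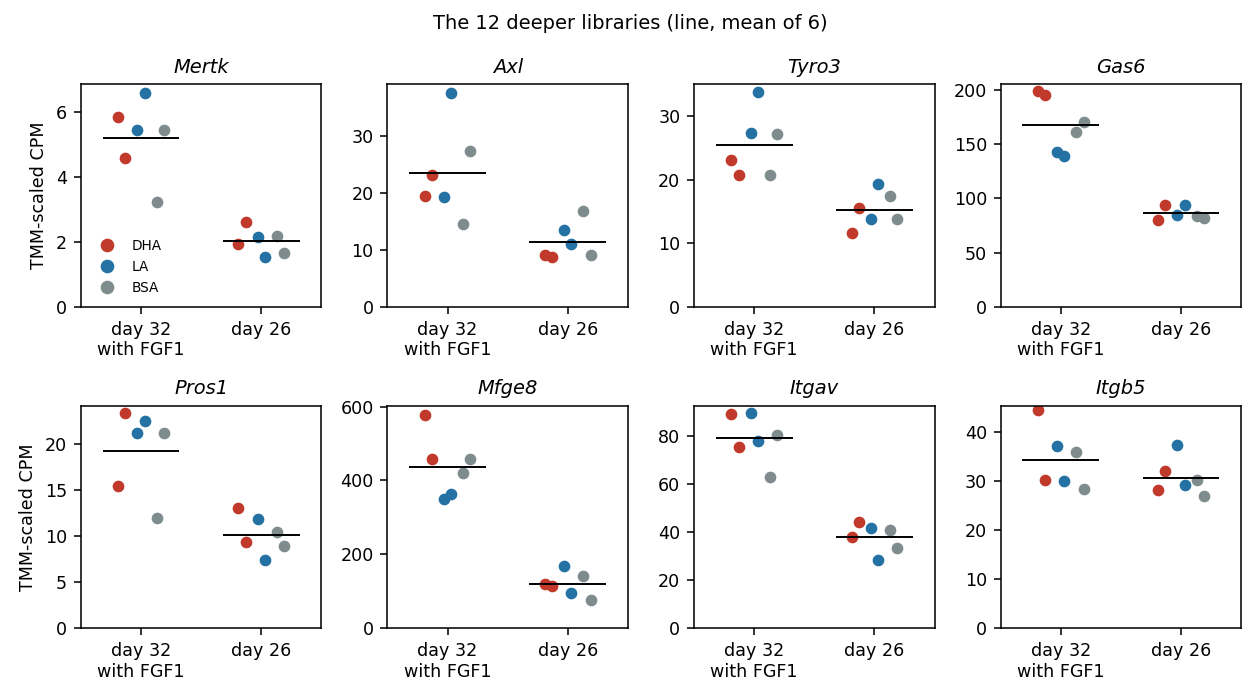
Level of each gene (vertical axis, TMM-scaled CPM, from 0) in the 12 deeper libraries, day 32 with FGF1 at the left and day 26 at the right of each panel, coloured by medium, with lines for means of 6 libraries. Mertk sits at 3.25 to 6.61 CPM with FGF1 and at 1.55 to 2.63 CPM at day 26, and Itgb5 overlaps between the states.

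FGF1 could be compared without the change of age in the left-out libraries only, with 1 LA and 1 BSA library in each state. Mertk stood at 6.71 CPM in LA and 3.92 CPM in BSA with FGF1, against 5.85 CPM in LA and 4.19 CPM in BSA without it. The log2 difference was 0.12 (−0.61 to 0.84, adjusted p = 0.981) for Mertk, 0.69 (−0.03 to 1.41, adjusted p = 0.920) for Pros1 and −0.46 (−2.07 to 1.14, adjusted p = 0.957) for Mfge8. For Itgav it was 0.39 (−0.05 to 0.84, adjusted p = 0.920), and the other 4 members lay between −0.52 and 0.19. With edgeR 0 of 8 members and 0 of 21124 genes (0%) passed, with 1062 genes (5.03%) at an unadjusted p under 0.05, and DESeq2 called 26. With 2 libraries on each side, these intervals are wide.

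Other genes of engulfment were given by 5 lists of 73 genes, of which 69 were tested. Between day 32 with FGF1 and day 26, 10 of the 69 rose and none fell, beside 8.01% of all genes tested that rose and 7.02% that fell. The median log2 difference of the 69 was 0.04, against −0.01 over all genes. The 5 with the smallest p were Atp8a2, a flippase that keeps phosphatidylserine inside the membrane (0.66, adjusted p = 0.000174), Dock1, which with Elmo1 activates RAC1 at the forming cup (0.91, adjusted p = 0.000559), Anxa5, a phosphatidylserine binding annexin (1.29, adjusted p = 0.00105), Tub (1.06, adjusted p = 0.00114) and Itgb8, another partner of Itgav (0.91, adjusted p = 0.00257). The product of Tub has been reported as a ligand of MERTK. Tub had 314 to 554 CPM at day 32 with FGF1 and 165 to 275 CPM at day 26, and Dock1 had 15.4 to 26.5 CPM and 9.39 to 14.5 CPM, neither with overlap. By list, 4 of 13 TAM and integrin partners, 3 of 23 genes of the engulfment machinery and 3 of 13 genes of phosphatidylserine exposure and restraint rose, while 0 of 12 other engulfment receptors and 0 of 8 genes of TAM signalling and feedback passed. These counts are small, and they stand beside the same 8.01%.

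For DHA against LA averaged over day 26 and day 32 with FGF1, 0 of the 69 genes passed, with 1 at an unadjusted p under 0.05. That gene was Dock5, a relative of Dock1, at −1.08 (−1.69 to −0.47, adjusted p = 1). The median over the 69 genes was −0.01, against 0.01 over all genes tested.

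With edgeR, some markers of the cells known to use these genes passed between day 32 with FGF1 and day 26, and none between media. Their part in the results was not tested. Of 12 Müller glia markers, 7 were higher at day 32 with FGF1 than at day 26, where 8.01% of all genes were, and the list summed to 2030 to 3260 CPM in the 8 libraries of day 32 with FGF1 and to 1090 to 1730 CPM in the 6 of day 26. Its most abundant genes were Dkk3 and Vim. Of 4 astrocyte markers, led by Gfap and Aldh1l1, 2 were higher. The median of the 4 was −0.91 for DHA minus LA at day 32 without FGF1 and −1.60 with FGF1. It was 2.12 for LA minus BSA with FGF1, where 3 of 4 had an unadjusted p under 0.05 and none passed. With FGF1 the list summed to 70.6, 487 and 66.2 CPM in LA, so 1 LA library, replicate 2, stood far above the rest. It summed to 68.5 and 41.6 CPM in DHA and to 39.2, 57.4 and 23.2 CPM in BSA. Among photoreceptor genes, Gnat1 (4.60), Rcvrn (4.31), Sag (1.23) and Pde6b (0.67) were higher at day 32 with FGF1 than at day 26, and Opn1sw (−2.56) was lower, while Crx, Nrl, Nr2e3, Arr3 and Gnat2 did not pass. In DHA minus LA with FGF1 none of these passed, with unadjusted p under 0.05 for Nrl (0.67), Nr2e3 (0.55), Pde6b (0.54), Crx (0.46) and Opn1sw (−1.88). Of 12 microglia and macrophage markers, led by Itgam and Ptprc, 3 to 9 were at 0 in a library, and the list summed to 3.30 to 9.04 CPM over the 23 libraries. The complement gene C1qa, with a mean of 9.05 counts per library, was lower at day 32 with FGF1 than at day 26 (−4.56). It was the only 1 of the 4 markers tested from this list that passed, and the median of the 4 was 0.13.

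Pigment epithelium markers, led by Ttr and Dct, were low in the DHA libraries of day 32, where they overlapped LA without FGF1. Their median for DHA minus LA was −0.74 without FGF1 and −1.60 with FGF1, where 6 of 12 had an unadjusted p under 0.05 and none passed. For DHA minus BSA the median was −1.16 without FGF1 and −0.75 with FGF1. In these, 5 and 3 of the 12 had an unadjusted edgeR p under 0.05, and none passed. At day 32 without FGF1 their 14 genes summed to 30.2 to 50.6 CPM in DHA, to 35.1 to 153 CPM in LA and to 70.5 to 123 CPM in BSA. The DHA libraries thus lay below every BSA library there. With FGF1 they summed to 31.2 to 40.7 CPM in DHA, to 68.3 to 324 CPM in LA and to 45.2 to 194 CPM in BSA. At day 26 they summed to 149 to 164 CPM in DHA, to 64.7 to 394 CPM in LA and to 37.5 to 257 CPM in BSA. Between day 32 with FGF1 and day 26 Serpinf1 was higher (1.24), and Pmel (−2.44) and Tyrp1 (−2.32) were lower. Rpe65, which defines mature pigment epithelium, averaged 0.0431 counts per library. The 10 mesenchyme markers, led by Col3a1 and Postn, summed to 46.4 to 153 CPM in DHA, to 74.2 to 276 CPM in LA and to 141 to 174 CPM in BSA at day 32 without FGF1. In DHA minus LA averaged over day 26 and day 32 with FGF1 their median was −1.73, with 7 of 10 at an unadjusted p under 0.05 and 0 passing, and between day 32 with FGF1 and day 26 Pdgfra was higher (1.31). Endothelial markers, led by Kdr and Pecam1, summed to 140 to 416 CPM over the 23 libraries. Kdr is also a gene of retinal progenitors and neurons, and 1 of the 4 endothelial markers tested, Kdr itself (0.48), was higher at day 32 with FGF1 than at day 26.

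Levels of different genes were compared per length, as transcript counts per kilobase scaled to the same total in every library (TPM). Mertk was the lowest of the 3 receptors in 21 of the 23 libraries, the exceptions being the 2 left-out libraries with FGF1, where Tyro3 was lower. At day 32 with FGF1 in the kept libraries the medians were 3.38 for Mertk, 14.3 for Axl and 19.7 for Tyro3, and at day 26 they were 1.06, 6.39 and 10.1 in the same order. Tyro3 was the highest receptor in all 12 deeper libraries and Axl in all 11 shallower ones. The sign of the GC slope split the libraries in the same way, and Tyro3 (58.3% GC) was more GC-rich than Axl (54.3%). After adjustment for GC content neither the deeper nor the shallower libraries kept 1 order. At day 32 without FGF1, Tyro3 and Axl stood at 4.2 and 3.4 in BSA replicate 3 and at 2.79 and 4.26 in BSA replicate 1 (log2 CPM). In deeper LA libraries they stood at 3.55 and 2.93 in replicate 2 of day 26, and at 4.32 and 4.62 in replicate 2 with FGF1. These adjusted values are not per length. The adjustment takes out each library's trend with GC, so it also shifts genes of unlike GC against each other. Their order can therefore not be set against the order per length. The part of GC in the order per length was not tested. Mfge8 had the highest median of the 8 genes in each state and library set, at 547 with FGF1 in the kept libraries and 122 at day 26, followed there by Gas6 at 156 and 67.5. The kept libraries of day 32 without FGF1 gave medians of 59.4 for Mfge8, 31.7 for Itgav, 27.9 for Itgb5, 25.1 for Pros1, 23.7 for Gas6, 4.57 for Axl, 3.86 for Tyro3 and 1.70 for Mertk. From Itgav to Gas6 the ranges overlapped, at 26.7 to 33.4 for Itgav and 11.6 to 82.1 for Gas6, and those of Axl (2.87 to 10.7) and Tyro3 (1.52 to 10.7) did too.

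The GC slope differed between libraries of 1 group, as did the levels of Mfge8 and Gas6. Transcripts of Tyro3 (58.3% GC), Mfge8 (57.4%), Gas6 (56.6%), Itgb5 (56.1%) and Axl (54.3%) were GC-rich, and those of Mertk (48.1%), Itgav (43.8%) and Pros1 (43.4%) were less so. The least negative slopes at day 32 without FGF1 were −0.569 in DHA replicate 2, −0.918 in LA replicate 2 and −0.748 in BSA replicate 1. These 3 libraries held the highest Mfge8 of their media (219, 108 and 149 CPM) and the highest Gas6 (93.0, 51.7 and 53.5 CPM). Tyro3, the most GC-rich member, was highest there in DHA and LA (14.8 and 8.05 CPM) but lowest in BSA (4.19 CPM). Mertk stood at 1.88, 6.48 and 4.19 CPM in the same 3 libraries, so it was the lowest DHA and the highest LA and BSA value. The part of GC in these differences was not tested.

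**Figure D4:**
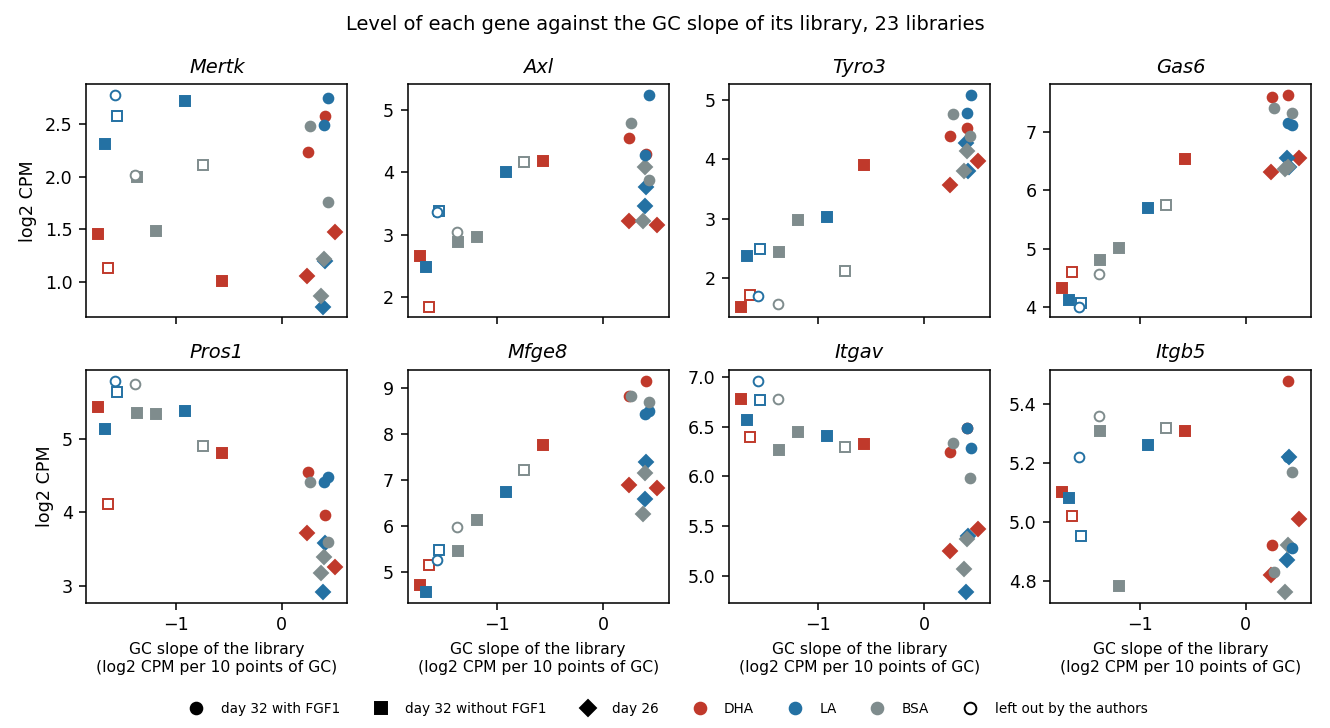
Level of each gene (vertical axis, log2 CPM) against the GC slope of its library (horizontal axis, log2 CPM per 10 points of GC) in 23 libraries, with symbols for state, colours for medium and open symbols for left-out libraries. The deeper libraries sit at slopes of 0.239 to 0.504 and the shallower ones at −1.73 to −0.569, and the highest Mfge8 of day 32 without FGF1, 219 CPM, is at the slope of −0.569.

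The genes whose pattern was most like that of Mertk were found by the root mean square distance of log2 CPM, centred within each day, FGF1 state and library set, over the 23 libraries. Of 13087 genes the closest were Gstm5 (0.293), Mtap (0.301), Odc1 (0.313), Mrpl13 (0.313) and Ptrhd1 (0.313), against a median of 0.509 and a spread of Mertk itself of 0.433. Among the other 7 members Pros1 was nearest, at 0.348 and rank 43, followed by Itgav at 0.389 and rank 458, and Mfge8 was farthest, at 0.861 and rank 12510. The 23 libraries include those of day 32 without FGF1 in which Mertk was picked, so the likeness draws on that contrast. A gene that did not vary would lie at 0.433, and Itgav, at 0.389, had a spread of its own of 0.184. The libraries share depth, GC slope and media, and the likeness is a description.

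In the authors' deposited table of normalized CPM, which holds the 18 kept libraries, Mertk stood at 1.88 and 2.63 in DHA, at 6.61 and 4.91 in LA and at 3.96 and 2.65 in BSA at day 32 without FGF1. The genes lie at chr2:128698956-128802894 for Mertk, chr7:25757273-25788705 for Axl, chr2:119797733-119818104 for Tyro3 and chr8:13465374-13494490 for Gas6. Pros1 is at chr16:62854307-62929346, Mfge8 at chr7:79133768-79149060, Itgav at chr2:83724397-83806916 and Itgb5 at chr16:33829665-33949338, all on GRCm38.p6, with Axl, Gas6 and Mfge8 on the minus strand.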

How the data were processed

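Poly(A) RNA of 23 libraries in 9 groups was analysed. The submitters' processing notes name kallisto 0.45.0, Trimmomatic 0.36, edgeR and GRCm38.p6; order and settings are not given in the sources used here. The authors deposited estimated counts (expected counts, the kind kallisto, a tool named in the submitters' processing notes, makes) per gene and per transcript for all 23 libraries, and a signal in normalized CPM for the 18 that they kept. The estimated counts were rounded to whole numbers here. Genes were filtered with filterByExpr on the 9 groups (21124 kept), scaled by TMM and fitted in 1 quasi-likelihood model with edgeR 4.0.16 in R 4.3.3, with group terms and a term for the left-out libraries within each day 32 state (residual degrees of freedom 12). Benjamini-Hochberg adjusted p-values, over all genes tested, were called under 0.05. Intervals are 95% and approximate, and log2 CPM used a prior count of 2. Depth per library was 10405663 to 20510550 counts.

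The members and lists were chosen with earlier results of these data known. Named genes were all 8 members, the list genes passing the threshold with at most 5 per direction by p (or the smallest unadjusted p), 2 markers per list by mean count, and the 5 genes most like Mertk. The summed level of the photoreceptor marker list is not reported here. Cd47, Cd36, Cx3cl1, Elmo1 and Abca1 also passed in the day comparison.

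The other settings tried were DESeq2 1.42.0, RLE in place of TMM, every gene without the low-count filter, no library set term, the 18 kept libraries, a replicate block, and 1 library left out at a time. GC offsets (lowess span 0.3) and fits of the deeper or the shallower libraries alone were added after seeing the data. Lengths and GC content came from the annotation of 134456 of 136550 transcripts, and promoters from RefSeq, where all 8 members matched. The GC slope used 17478 genes with a mean count of at least 10. The model was tested on simulated data, where 7 unchanged genes were called. Same-numbered libraries of DHA and LA at day 32 without FGF1 deviated together (r = 0.228, 0.546 and 0.352), as did LA and BSA with FGF1 (0.713, 0.693 and 0.832), so these numbers were taken as pairs, in a fit with a replicate block beside the model without one. Yet replicate 1 of the first 2 groups and replicate 3 of the other 2 were left out by the authors, so library sets can give the same. Protein sequences were not used here. What made the deposited gene counts of Mertk differ from the sums of its transcript counts is not given in the sources used here.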

Additional observations from a re-analysis of the deposited data

Results flagged for a closer look

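LA and BSA stood in opposite order for Gas6 in 2 states, in every kept library. LA minus BSA in mean log2 CPM was −0.23 at day 32 with FGF1, where both kept LA libraries were below both kept BSA libraries (as for 14.4% of genes tested), and 0.10 at day 26, where both LA libraries were above both BSA libraries (as for 12.4%). The value at day 32 with FGF1 less that at day 26 was −0.33, and this difference was not tested.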

How the results depend on the processing

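Across the alternatives run, 1-library-out fits included, Mertk kept a called rise at day 32 with FGF1 against day 26; its sign for DHA minus LA at day 32 without FGF1 was fixed by the choice of the gene, and the replicate block value of −1.38 there is a description. Where a value changed, the cause was not tested unless stated.

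Without a filter on low counts, called genes numbered 26, 24 and 31 for DHA–LA, DHA–BSA and LA–BSA at day 26, 206, 143 and 132 at day 32 without FGF1 and 157, 42 and 113 with FGF1. The averaged DHA–LA contrast then had 131, FGF1 in the left-out libraries 145 and the state difference 73. DESeq2 called 29, 10 and 11 at day 32 without FGF1, 40 and 1 for DHA–LA and LA–BSA with FGF1, 5 in the averaged contrast, 26 for FGF1 in the left-out libraries and 28 for the state difference. Without the library set term, which mixes library sets by construction, the day comparison called 2001 and FGF1 in the left-out libraries 2951. The 18 kept libraries called 1 gene for DHA–BSA at day 32 without FGF1 and 1 for LA–BSA with FGF1. The replicate block called 2 each for DHA–LA and DHA–BSA at day 32 without FGF1, and 6 of 8 members in the day comparison. GC offsets called 2 for FGF1 in the left-out libraries. The deeper libraries alone called 2 for DHA–LA and 3 for LA–BSA with FGF1, 1 in the averaged contrast and 5773 in the day comparison.

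Member values that changed sign were, with RLE, 0 for Itgb5 (DHA–BSA, day 32 without FGF1) and −0.01 for Axl (DHA–BSA with FGF1), and DESeq2 gave 0 and −0.01 for the same. Without the set term Tyro3 became 0.03 (DHA–LA with FGF1), 0.37 (DHA–BSA with FGF1) and 0.32 (state difference). Pros1 became −0.59 (DHA–BSA with FGF1) and −0.27 (averaged), Itgav −0.03 and −0.01, and Itgb5 −0.02 (averaged). FGF1 against none without the set term gave 0.85 for Axl, 1.69 for Tyro3, 1.72 for Gas6, −0.36 for Pros1, 1.97 for Mfge8 and 0 for Itgb5. In the kept libraries at day 32 without FGF1, DHA–LA gave 0.17 for Axl and 0.08 for Itgav, and DHA–BSA gave 0.71 for Axl and 0.14 for Itgb5. There LA–BSA gave 0.54 for Axl, 0.20 for Gas6, −0.09 for Pros1, 0.20 for Mfge8 and 0.11 for Itgb5, and Itgb5 gave 0.06 with FGF1. The replicate block at day 32 without FGF1 gave Tyro3 −0.08 (DHA–LA) and −0.04 (DHA–BSA), Gas6 −0.16 and Mfge8 −0.65 (both DHA–BSA). GC offsets gave Tyro3 −0.33 (DHA–LA), Itgb5 0.28 (DHA–BSA) and 0.27 (LA–BSA) and Axl 0.20 (LA–BSA) at day 32 without FGF1, and Itgav 0.01 (DHA–LA with FGF1). The deeper libraries alone gave Itgb5 0.08 (LA–BSA with FGF1) and −0.02 (averaged), and the shallower ones alone gave Itgb5 0 (DHA–BSA, day 32 without FGF1).

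Leaving out 1 library at a time, the count of called genes was 0 to 64 for DHA–BSA and 0 to 5 for DHA–LA at day 32 without FGF1. For DHA–BSA it was 64 without DHA replicate 2, 3 without DHA replicate 3 and 1 without BSA replicate 1, and for DHA–LA it was 2 without DHA replicate 2 and 5 without DHA replicate 3. Ranges of member values that crossed 0 follow, by comparison. DHA–LA at day 26 ran from −0.16 to 0.08 for Gas6, −0.08 to 0.61 for Pros1, −0.53 to 0.29 for Mfge8, −0.03 to 0.54 for Itgav and −0.31 to 0.05 for Itgb5. DHA–BSA at day 26 ran from −0.06 to 0.18 for Gas6, −0.03 to 0.43 for Pros1, −0.28 to 0.61 for Mfge8 and −0.02 to 0.17 for Itgb5. LA–BSA at day 26 ran from −0.31 to 0.16 for Mertk, −0.46 to 0.41 for Axl, −0.17 to 0.30 for Tyro3, −0.39 to 0.30 for Pros1, −0.19 to 0.79 for Mfge8 and −0.39 to 0.18 for Itgav. At day 32 without FGF1, DHA–LA ran from −1.15 to 0.38 for Axl, −1.01 to 0.47 for Tyro3, −0.40 to 1.41 for Gas6, −1.09 to 1.65 for Mfge8, −0.24 to 0.07 for Itgav and −0.04 to 0.13 for Itgb5. There DHA–BSA ran from −1.13 to 0.47 for Axl, −0.89 to 0.61 for Tyro3, −0.79 to 0.89 for Gas6, −1.53 to 0.92 for Mfge8 and −0.20 to 0.14 for Itgb5. LA–BSA there ran from −0.50 to 0.82 for Axl, −0.12 to 0.39 for Tyro3, −1.16 to 0.23 for Gas6, −0.19 to 0.43 for Pros1, −1.41 to 0.42 for Mfge8 and −0.24 to 0.10 for Itgb5. With FGF1, DHA–LA ran from −0.67 to 0.03 for Axl, −0.44 to 0.15 for Pros1, −0.14 to 0.10 for Itgav and −0.12 to 0.44 for Itgb5. DHA–BSA with FGF1 ran from −0.29 to 0.36 for Axl, −0.17 to 0.43 for Pros1, −0.02 to 0.32 for Mfge8 and −0.13 to 0.43 for Itgb5, and LA–BSA from −0.13 to 0.07 for Itgb5. The averaged DHA–LA contrast ran from −0.10 to 0.15 for Mertk, −0.11 to 0.25 for Pros1, −0.02 to 0.26 for Itgav and −0.13 to 0.15 for Itgb5. Its difference between states ran from −0.24 to 0.47 for Axl, −0.41 to 0.05 for Tyro3 and −0.56 to 0.01 for Itgav. FGF1 against none in the left-out libraries ran from −0.04 to 0.27 for Mertk, −0.31 to 0.70 for Axl, −0.85 to 0.39 for Gas6 and −0.71 to 0.72 for Mfge8; where a side kept 1 library, it was assumed to vary like the other groups. Mertk had 19.3 to 126 deposited counts per library, which limits its precision.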
